A study of Arabidopsis thaliana with 8 samples.

Results

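The 8 genes described here are clock-linked output and co-regulator genes of Arabidopsis thaliana, chosen by name as 3 small families: LNK1 (AT5G64170), LNK2 (AT3G54500), LNK3 (AT3G12320) and LNK4 (AT5G06980), COR27 (AT5G42900) and COR28 (AT4G33980), and GRP7 (AT2G21660) and GRP8 (AT4G39260). They are 8 of 34133 gene entries measured, and they were chosen with earlier results of these data known. Polyadenylated RNA was sequenced from whole seedlings of the Col-0 strain, 10 days old, raised on plates with 16 h of light and 8 h of dark at 22°C. The mutants were mom1 (2 libraries) and mom1pial2, pial2, pial1/2 and nrpe1 (1 library each), and wild type (WT) had 2 libraries. MOM1 keeps transposons and repeats transcriptionally silent, PIAL1 and PIAL2 resemble ligases that attach SUMO to proteins, and RNA polymerase V, whose largest subunit is NRPE1, works in RNA-directed DNA methylation. The alleles, the number of plants in a library and the hour of harvest are not given in the sources used here.

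Each deposited table sets 1 mutant library against 1 WT library. WT replicate 2 was tabulated with mom1 replicate 2, mom1pial2 and pial2, and these 4 libraries are called set 2. WT replicate 1 was tabulated with mom1 replicate 1, pial1/2 and nrpe1, and these 4 are called set 1. The 2 sets come from separately normalised tables, so levels across them are described and not tested. Nothing states that replicates came from separate cultures, so p-values over both mom1 replicates measure the spread between these libraries, which may be technical. The authors' p-values compare 1 library with 1 library and hold no spread between replicates.

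The plant circadian clock is a loop of transcription factors that repress or activate one another at set times of day. The LNK proteins are co-activators without a known DNA-binding domain. They are most abundant in the morning, and RVE8 and RVE4, MYB-like relatives of the morning repressors CCA1 and LHY, bring them to the promoters of evening genes such as PRR5 and TOC1. COR27 and COR28 are small proteins induced by cold and by blue light that lower the transcription of PRR5 and TOC1, and the light-signalling ubiquitin ligase COP1 acts on them. GRP7 and GRP8 are RNA-binding proteins with an RNA recognition motif and a glycine-rich tail. Their transcripts cycle with a peak late in the day, and GRP7 protein lowers its own transcript and that of GRP8 through alternative splicing. CCA1, LHY and RVE8 bind a short sequence named the evening element, and light-regulated bZIP and bHLH factors bind the G-box.

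The promoters of 5 of the genes are shown because, within 300 bases, those low in set 2 and those high there differed in which of these motifs they held. GRP7 held both motifs, and LNK4, which is not shown, held neither. Each sequence runs 5′ to 3′ on the gene's own strand, from 250 bases before to 50 bases after the start of the gene in the RefSeq annotation of TAIR10.1. Capitals mark the evening element (AAAATATCT, or AGATATTTT where it lies on the other strand), the G-box (CACGTG) and, in COR28, the CCA1-binding site (AAAAATCT).
COR28 (chr4:16285180-16285479, minus strand): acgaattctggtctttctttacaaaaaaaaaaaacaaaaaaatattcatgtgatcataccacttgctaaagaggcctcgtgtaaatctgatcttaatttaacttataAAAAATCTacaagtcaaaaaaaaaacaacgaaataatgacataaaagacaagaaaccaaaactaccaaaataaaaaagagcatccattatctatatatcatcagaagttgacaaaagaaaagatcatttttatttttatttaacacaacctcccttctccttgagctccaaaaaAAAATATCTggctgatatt
GRP7 (chr2:9266508-9266807, minus strand): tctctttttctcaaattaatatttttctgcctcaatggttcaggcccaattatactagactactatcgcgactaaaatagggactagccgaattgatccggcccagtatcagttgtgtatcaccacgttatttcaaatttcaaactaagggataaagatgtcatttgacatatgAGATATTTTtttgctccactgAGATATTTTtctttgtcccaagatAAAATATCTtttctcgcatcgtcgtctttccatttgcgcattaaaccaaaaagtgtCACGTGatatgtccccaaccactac
GRP8 (chr4:18275167-18275466, minus strand): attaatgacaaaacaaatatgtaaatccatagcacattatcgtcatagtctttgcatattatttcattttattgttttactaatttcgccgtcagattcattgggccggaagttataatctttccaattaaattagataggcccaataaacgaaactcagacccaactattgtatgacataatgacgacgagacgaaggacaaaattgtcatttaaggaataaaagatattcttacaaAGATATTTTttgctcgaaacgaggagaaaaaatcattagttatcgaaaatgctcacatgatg
LNK1 (chr5:25676774-25677073, minus strand): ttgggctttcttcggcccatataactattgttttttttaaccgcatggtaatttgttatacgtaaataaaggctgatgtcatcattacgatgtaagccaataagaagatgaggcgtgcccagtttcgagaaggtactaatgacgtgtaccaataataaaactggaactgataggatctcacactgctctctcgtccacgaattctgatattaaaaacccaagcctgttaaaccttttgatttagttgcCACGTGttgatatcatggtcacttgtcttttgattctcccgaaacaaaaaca
LNK3 (chr3:3923265-3923564, plus strand): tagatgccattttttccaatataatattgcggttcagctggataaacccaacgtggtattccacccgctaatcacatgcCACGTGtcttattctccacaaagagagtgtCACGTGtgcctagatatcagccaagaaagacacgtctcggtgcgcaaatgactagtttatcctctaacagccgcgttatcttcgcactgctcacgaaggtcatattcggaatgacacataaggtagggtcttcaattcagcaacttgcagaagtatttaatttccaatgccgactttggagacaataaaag

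Both strands were searched for these 3 motifs, and no match of one overlapped a match of another. Matches are given for 7 of the 8 genes, all but COR27. The evening element stood in the 300-base window of COR28 (1 match), GRP7 (3) and GRP8 (1) and in that of no LNK gene. In GRP7 the matches began 76, 55 and 31 bases before the gene start. In GRP8 the match began 12 bases before the start, and in COR28 it began at base 32 after it. Of 27443 promoters of the same length, 2.82% held the evening element and 0.0984% held it 2 or more times. The G-box stood in LNK3 (171 and 141 bases before the start), LNK1 (2 bases before it), LNK2 (at base 25 after it) and GRP7 (at base 26 after it), against 7.68% of all promoters. The CCA1-binding site stood in COR28 alone (143 bases before the start), against 7.88% of all promoters. LNK4 held none of the 3 motifs. Farther upstream, COR28 held a G-box 599 bases before the start and GRP8 a CCA1-binding site 689 bases before it. Over a window of 1050 bases the G-box thus stood in 5 of the 7 genes, COR28 among them, against 15.9% of all promoters. The CCA1-binding site stood in 2 of the 7 over that window, against 22.1% of all promoters. A match describes the letters and does not show that a factor binds there.

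**Figure D1:**
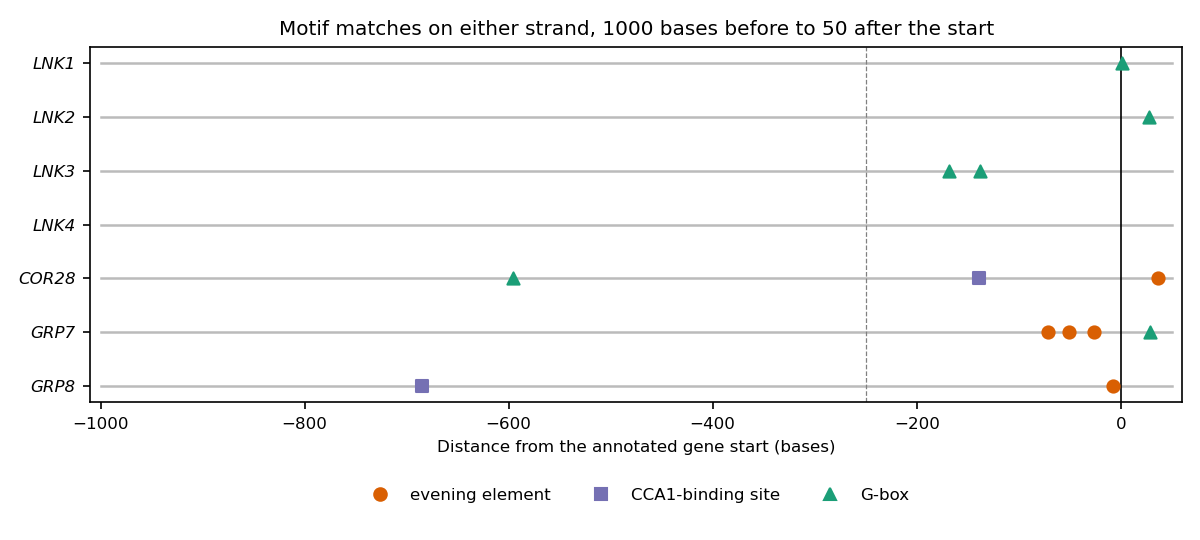
Motif matches on either strand around the annotated start of 7 of the genes (x axis, bases from the start, negative upstream; 1 row per gene; the dashed line marks where the 300-base window begins). Evening elements lie near the start of COR28, GRP7 and GRP8, and G-boxes lie within the 300-base window of LNK1, LNK2, LNK3 and GRP7. COR28 has a G-box and GRP8 a CCA1-binding site farther upstream, and LNK4 has no match.

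All values below are FPKM as the authors gave them, fragments per kilobase of transcript scaled for the size of the library. The scaling differed slightly between tables, by a factor of 0.995 to 1.02 for the same WT library. Log2 ratios were taken on FPKM plus 1, which shrinks the ratios of genes near or under 1 FPKM. Counts of genes at least 2-fold apart between the WT or the mom1 libraries were made on that scale too. Folds given for single genes are on FPKM itself. The tables give no counts, so depth in fragments is unknown. The step between low values shows the worth of a fragment: that of mom1 replicate 1 was 0.666 times that of WT replicate 1, which makes it the deeper library, and the ratio in the rest of the tables was 1 to 1.13. MOM1 had 1.15, 1.29 and 1.61 FPKM in mom1 replicate 2, mom1pial2 and mom1 replicate 1, against 4.90 FPKM in WT replicate 2 and 6.10 FPKM in WT replicate 1. NRPE1 had 1.16 FPKM in nrpe1, against 4.61 FPKM in WT replicate 1. PIAL2 had 2.13 FPKM in mom1pial2 and 1.96 FPKM in pial2, against 5.42 FPKM in WT replicate 2. In the library labelled pial1/2 PIAL1 had 11.3 FPKM and PIAL2 4.79 FPKM, against 11.8 and 6.51 FPKM in WT replicate 1, so transcript level does not check that label.

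The LNK genes were higher in set 2 than in set 1. LNK1 had 62.5 FPKM in mom1 replicate 2, 57.5 in mom1pial2, 54.6 in pial2 and 64.8 in WT replicate 2, against 34.7 FPKM in mom1 replicate 1, 19.6 in pial1/2, 25.3 in nrpe1 and 21.8 in WT replicate 1. The sets did not overlap, and the nearest libraries of the 2 sets, pial2 and mom1 replicate 1, were 1.57-fold apart. Between the WT libraries LNK1 was 2.97-fold higher in WT replicate 2, and between the mom1 libraries it was 1.80-fold higher in mom1 replicate 2.

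LNK2, the closest relative of LNK1, had 286, 262, 284 and 272 FPKM in mom1 replicate 2, mom1pial2, pial2 and WT replicate 2, against 69.0, 56.3, 64.0 and 58.3 FPKM in mom1 replicate 1, pial1/2, nrpe1 and WT replicate 1. The nearest libraries of the 2 sets, mom1pial2 and mom1 replicate 1, were 3.80-fold apart, and the WT libraries were 4.67-fold apart. The interval of LNK2 overlaps the entry AT3G54490, which had 0.208 to 0.473 FPKM over the 8 libraries. LNK2 ranked 492nd by FPKM of 34037 entries in WT replicate 2 and 2589th in WT replicate 1.

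LNK3 differed most of the 4. It had 157, 136, 136 and 133 FPKM in mom1 replicate 2, mom1pial2, pial2 and WT replicate 2, against 13.7, 6.10, 8.13 and 7.92 FPKM in mom1 replicate 1, pial1/2, nrpe1 and WT replicate 1. LNK3 was the lowest of the 8 genes in pial1/2, nrpe1 and WT replicate 1 and the fourth highest in every library of set 2. The WT libraries were 16.8-fold apart, and LNK3 ranked 73rd from the highest log2 difference among 20115 genes with at least 1 FPKM in either WT library. LNK4, the closest relative of LNK3, had 117, 96.5, 106 and 91.1 FPKM in mom1 replicate 2, mom1pial2, pial2 and WT replicate 2, against 25.3, 28.7, 26.2 and 27.9 FPKM in mom1 replicate 1, pial1/2, nrpe1 and WT replicate 1. Its WT libraries were 3.26-fold apart, and its 4 values in set 1 lay close together.

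COR27 and COR28 were near the floor in set 2. COR27 had 0.283 FPKM in mom1 replicate 2, 0.482 in mom1pial2, 0.687 in pial2 and 0.572 in WT replicate 2, against 5.39 FPKM in mom1 replicate 1, 19.4 in pial1/2, 8.77 in nrpe1 and 12.7 in WT replicate 1. COR28 had 0.886, 0.411, 0.815 and 0.516 FPKM in mom1 replicate 2, mom1pial2, pial2 and WT replicate 2, against 9.57, 23.4, 13.7 and 16.9 FPKM in mom1 replicate 1, pial1/2, nrpe1 and WT replicate 1. No library of set 2 reached 1 FPKM for either gene. COR27 was 22.2-fold and COR28 32.7-fold lower in WT replicate 2 than in WT replicate 1. On the log2(FPKM + 1) scale the differences were −3.12 and −3.56, against −4.47 and −5.03 with no pseudocount. In set 1 both genes kept the order pial1/2, WT replicate 1, nrpe1, mom1 replicate 1 from high to low. This order was not particular to them. LNK4 and the evening clock genes PRR5, TOC1, LUX, ELF3, BOA and FKF1 had it too, while ELF4 and GI did not. LNK1, LNK2 and LNK3 had the reverse order.

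GRP7 had 297, 211, 171 and 261 FPKM in mom1 replicate 2, mom1pial2, pial2 and WT replicate 2, against 1662, 2041, 2090 and 2242 FPKM in mom1 replicate 1, pial1/2, nrpe1 and WT replicate 1. It ranked 524th of 34037 entries by FPKM in WT replicate 2 and 36th in WT replicate 1. GRP8 had 220.1, 191, 165 and 193 FPKM in mom1 replicate 2, mom1pial2, pial2 and WT replicate 2, against 879.9, 834, 918 and 913 FPKM in mom1 replicate 1, pial1/2, nrpe1 and WT replicate 1. GRP7 was 8.59-fold and GRP8 4.72-fold lower in WT replicate 2 than in WT replicate 1. Neither gene's sets overlapped, and the nearest libraries were 5.60-fold apart for GRP7 and 3.79-fold apart for GRP8.

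**Figure D2:**
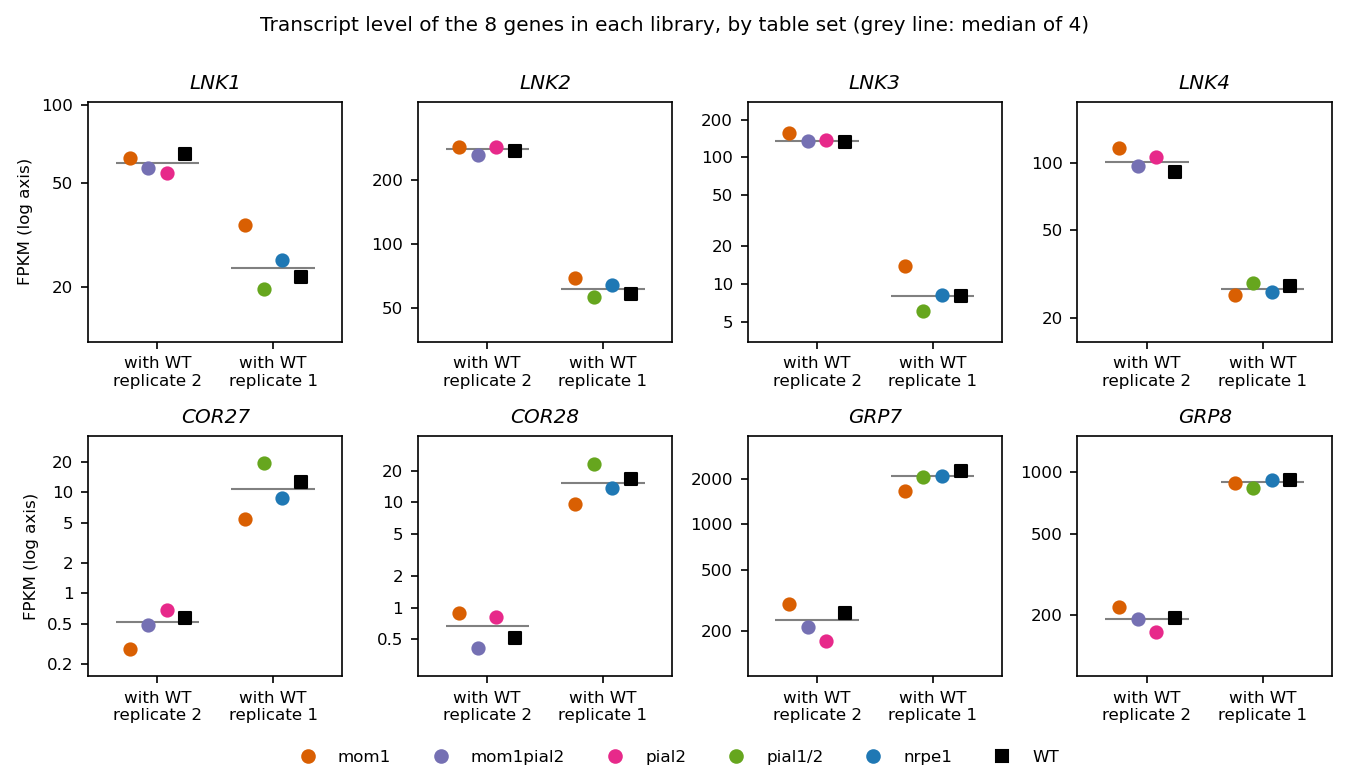
FPKM (log axis, scaled per panel) of each of the 8 genes in each of the 8 libraries, with the libraries tabulated with WT replicate 2 left of those tabulated with WT replicate 1; colours mark genotype, squares WT, and grey lines the median of 4 libraries. The LNK genes sit higher in set 2, COR27, COR28, GRP7 and GRP8 sit lower, and no panel has overlapping sets.

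All 8 genes thus differed by at least 2-fold between the WT libraries, 4 higher and 4 lower in WT replicate 2. Over all 20115 genes with at least 1 FPKM in either WT library, 15.4% differed by at least 2-fold, 8.32% higher and 7.05% lower. The 8 genes were chosen with earlier results of these data known, so setting them beside all genes is a description and not a test. Between the mom1 libraries 3 genes were at least 2-fold higher in replicate 2, LNK1 falling under the threshold, and 4 were lower. The share over all genes was not computed between the mom1 libraries. Complete separation of the 2 sets was common among genes: 29.7% of 20815 genes had all 4 libraries of set 2 above set 1, and 35.2% had all 4 below, so the lack of overlap by itself says little about these 8. Over all genes the median log2 difference was −0.073. GRP7 and COR27 ranked 130th and 129th and COR28 109th from the lowest log2 difference, and GRP8 251st. LNK2 ranked 297th, LNK4 597th and LNK1 739th from the highest.

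**Figure D3:**
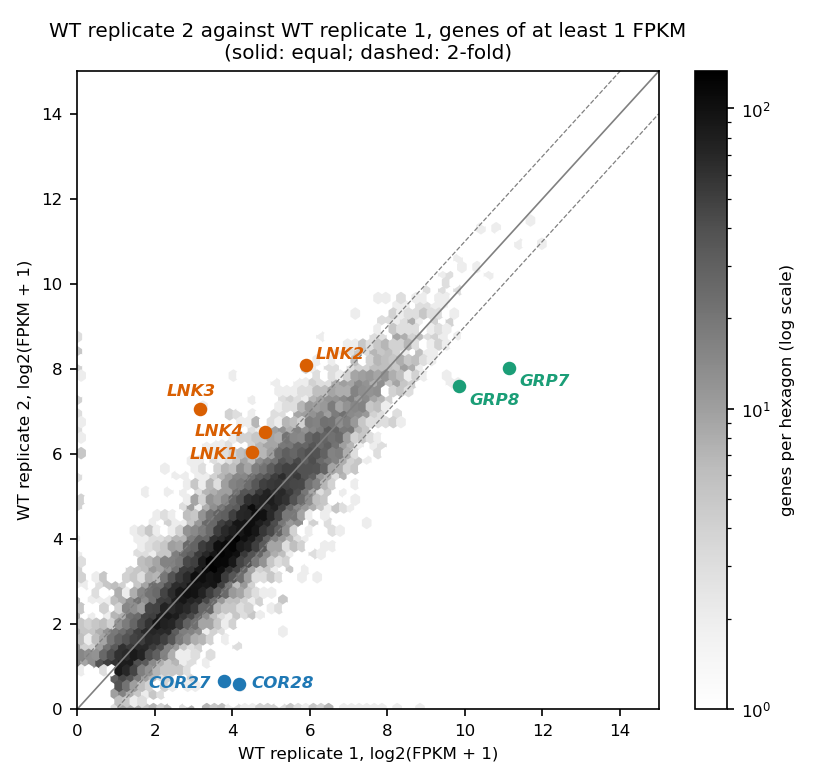
log2(FPKM + 1) of genes that reach 1 FPKM in either WT library, in WT replicate 2 (y axis) against WT replicate 1 (x axis), with grey hexagons counting genes and coloured points marking the 8 genes; the solid line is equality and the dashed lines 2-fold. The 4 LNK genes lie above the upper dashed line, LNK3 farthest, and COR27, COR28, GRP7 and GRP8 lie below the lower one.

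The relatives LNK3 and LNK4, LNK1 and LNK2, and GRP7 and GRP8 did not keep a fixed proportion between the sets. How often other pairs of genes separate in this way was not computed. FPKM corrects for transcript length, so levels of 2 genes in a library can be set side by side. LNK3 stood at 1.28 to 1.46 times the FPKM of LNK4 in set 2, against 0.213 to 0.542 times in set 1, so the order of the pair turned round. LNK1 stood at 0.192 to 0.238 times LNK2 in set 2, against 0.347 to 0.503 times in set 1. GRP7 stood at 1.04 to 1.35 times GRP8 in set 2, against 1.89 to 2.46 times in set 1. The ratio of COR27 to COR28 overlapped, at 0.320 to 1.17 in set 2, where both genes were under 1 FPKM, and 0.563 to 0.828 in set 1. No window of 50 bases in the exons of any of the 8 genes recurs elsewhere in the genome, by a search of TAIR10.1.

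Against WT within each table, 4 of the 8 genes were called in mom1 replicate 1 and none in any other table. The authors' Cuffdiff test, with a q-value under 0.05, called 4 of 48 gene and mutant pairs, and all 4 were in mom1 replicate 1. Of all 22230 genes tested there, 2.12% were called, 0.999% higher and 1.12% lower. LNK1 rose, at 34.7 FPKM in mom1 replicate 1 against 21.8 FPKM in WT replicate 1, a log2 ratio of 0.65 (authors' q = 0.0224). LNK3 rose, at 13.7 FPKM against 7.92 FPKM in WT replicate 1, a log2 ratio of 0.72 (authors' q = 0.0129). COR27 fell, at 5.39 FPKM against 12.7 FPKM in WT replicate 1, a log2 ratio of −1.10 (authors' q = 0.00346). COR28 fell, at 9.57 FPKM against 16.9 FPKM in WT replicate 1, a log2 ratio of −0.76 (authors' q = 0.0110). These tests compare 1 library with 1 library, not genotypes. The mom1 library was the deeper of this pair, with a fragment worth 0.666 times that of WT replicate 1, and the part of depth in these calls was not tested. GRP7, with a log2 ratio of −0.43, LNK2 with 0.24, LNK4 with −0.14 and GRP8 with −0.053 did not pass in mom1 replicate 1.

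The second mom1 library gave other values. In mom1 replicate 2 against WT replicate 2, where the authors called 2.34% of 21660 genes, none of the 8 passed, and none had an unadjusted p under 0.05. LNK1 had a log2 ratio of −0.051 there and COR28 one of 0.31, both opposite in sign to replicate 1, while LNK3 had 0.24 and COR27 −0.29. COR27 and COR28 were under 1 FPKM in both libraries of that table, so their ratios there rest on levels near the floor. With limma on both within-table ratios, 18 of 20488 genes were higher in mom1 and 0 lower (0.0879% called, with 566 higher and 681 lower at an unadjusted p under 0.05). None of the 8 genes was called. LNK3 averaged 0.48 ± 0.34 (SD, n = 2 ratios, limma adjusted p = 0.802) and COR27 −0.70 ± 0.57 (limma adjusted p = 0.814), the only 2 with an unadjusted limma p under 0.05 (0.0426 and 0.0463). The means of the other 6 lay between −0.22 for COR28 and 0.30 for LNK1, and the SD of each but LNK2 exceeded its mean in size.

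The remaining mutants, with 1 library each, gave no call on the 8 genes. The authors called 1.98% of 21612 genes in mom1pial2, 2.44% of 21562 in pial2, 1.19% of 21870 in pial1/2 and 1.87% of 21924 in nrpe1. In pial2 GRP7 had 171 FPKM, against 266 FPKM in WT replicate 2 as scaled in that table, a log2 ratio of −0.63 (authors' q = 0.102). In mom1pial2, tabulated with the same WT library, the log2 ratio of GRP7 was −0.33 (authors' q = 0.939). In pial1/2 COR27 had a log2 ratio of 0.58 (authors' q = 0.122) and COR28 one of 0.46 (authors' q = 0.137). In nrpe1 COR27 had −0.49 (authors' q = 0.485) and COR28 −0.28 (authors' q = 0.879). The neighbours of WT replicate 1 in the order of COR27 levels, pial1/2 above and nrpe1 below, were thus not called by the authors' test. A test of 1 library against 1 library cannot show that levels were alike. LNK ratios lay between −0.32, for LNK3 in pial1/2, and 0.20, for LNK1 in nrpe1, in these 4 mutants. Of the 48 pairs 8 had an unadjusted p under 0.05 in the authors' test, and 4 of these are the calls in mom1 replicate 1. The share over all genes at that threshold was not computed, so the count cannot be read as a result about these genes.

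**Figure D4:**
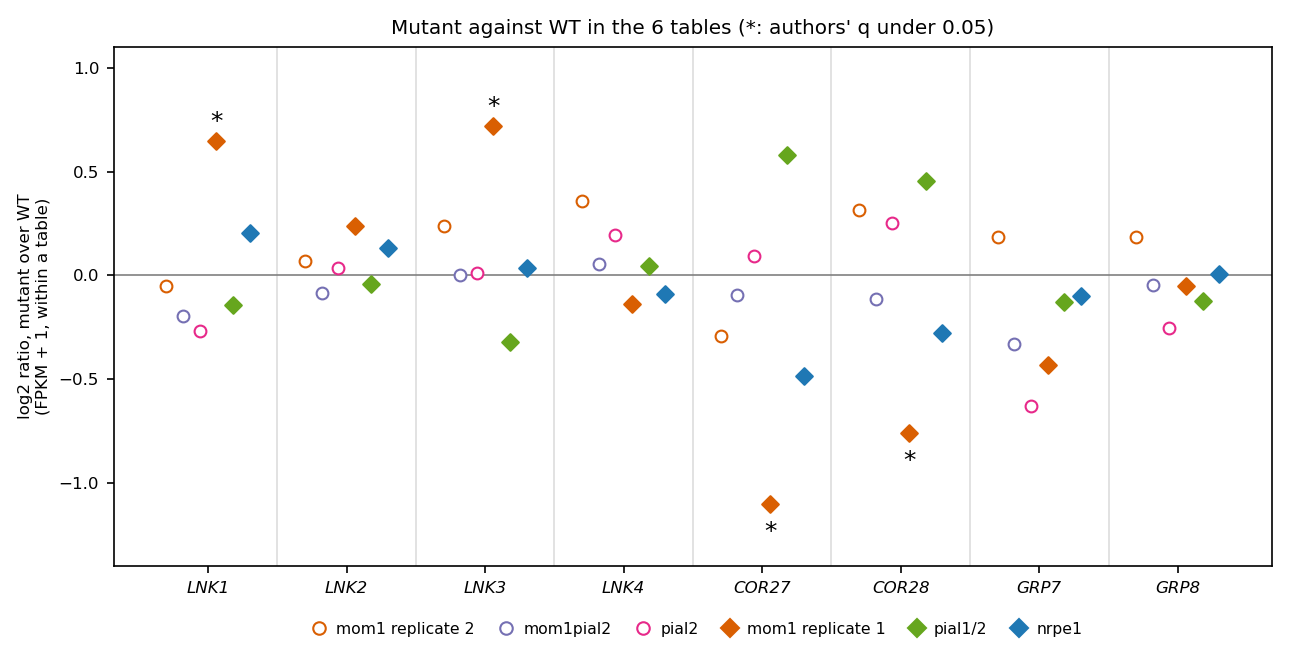
Log2 ratio of each mutant library over the WT library of its table (y axis, on FPKM + 1) for the 8 genes; open circles are tables with WT replicate 2, filled diamonds those with WT replicate 1, and asterisks mark an authors' q-value under 0.05. The 4 asterisks are all on mom1 replicate 1, with LNK1 and LNK3 above 0 and COR27 and COR28 below 0.

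The partners and targets of these genes were taken from lists of known clock, light and cold genes. The lists were chosen with earlier results of these data known. In the CCA1 and REVEILLE family, which holds the factors that recruit the LNK proteins, 6 of 10 genes were at least 2-fold higher in WT replicate 2. None was lower by that much, and the median log2 difference was 2.70, against −0.073 over all genes. RVE5, 2.12-fold higher in FPKM itself, fell under the threshold on FPKM plus 1. LHY had 155.5 FPKM in WT replicate 2 and 1.97 FPKM in WT replicate 1, and CCA1 had 148 FPKM in WT replicate 2 and 10.06 FPKM in WT replicate 1. The lowest 2 were RVE7 (log2 difference −0.77) and AT5G52660 (−0.043). Of 8 clock genes of the evening, PRR5 and TOC1 among them, 7 were at least 2-fold lower in WT replicate 2 and 0 higher, with a median of −2.28. PRR5, a pseudo-response regulator that represses CCA1, had 0.315 FPKM in WT replicate 2 and 31.2 FPKM in WT replicate 1. FKF1, a blue-light receptor of the flowering pathway, had 0.0338 FPKM in WT replicate 2 and 12.6 FPKM in WT replicate 1. BOA and ELF3 had the highest differences of that list, −0.49 and −1.64. The day repressors gave 1.07 for PRR9, −2.08 for PRR7 and −2.50 for PRR3.

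Lists tied to the light, cold and RNA-binding roles of these genes were read beside the 15.4% of all genes that differed by at least 2-fold. Among 8 light-signalling genes 2 were at least 2-fold higher in WT replicate 2 and 0 lower, with a median of 0.49. HYH and HY5, bZIP factors that bind G-boxes, had differences of 3.10 and 1.84, and the photoreceptor genes PHYA and CRY2 had −0.78 and −0.76. Among 9 cold-regulated genes 2 were at least 2-fold lower in WT replicate 2 and 0 higher on FPKM plus 1, with a median of −0.59. CBF1 and CBF3 fell under that threshold, though they were 5.48-fold and 2.43-fold lower in FPKM itself. COR15B and COR15A, which encode chloroplast proteins of cold acclimation, had differences of −2.74 and −1.16, and KIN2 and KIN1 had 0.36 and 0.17. Among 5 other glycine-rich RNA-binding protein genes, 2 were at least 2-fold higher and 1 lower. GRP3 and GRP5 had differences of 1.75 and 1.13, and GRP2 and GRP6 had −1.56 and −0.30, while the median of the list was −0.0021 and turned to 0.071 once all genes were centred on their median.

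**Figure D5:**
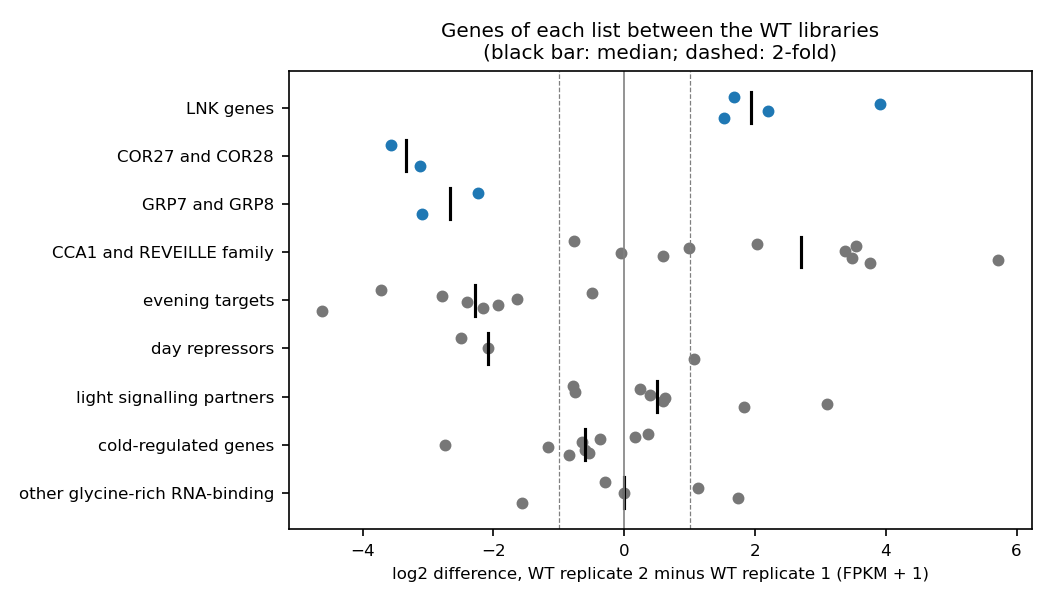
Difference in log2(FPKM + 1) between WT replicate 2 and WT replicate 1 (x axis, positive where WT replicate 2 is higher) for the 8 genes (blue) and for the genes of each list (grey), with black bars at list medians and dashed lines at 2-fold. The LNK genes and most of the CCA1 and REVEILLE family lie to the right, and COR27, COR28, GRP7, GRP8 and the evening genes lie to the left.

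Against WT within tables, the authors' test called members of these lists in some mutants. In mom1 replicate 1, the table with the 4 calls above, PRR5 fell (log2 ratio −0.64, authors' q = 0.00279) and FKF1 fell (−0.56, authors' q = 0.0392) among the 8 evening genes, and PRR9 rose (0.80, authors' q = 0.0152) among the 3 day repressors. No other evening gene or day repressor was called in any table. The authors did not test FKF1 in mom1 replicate 2, mom1pial2 or pial2, nor PRR5 in mom1pial2, so these genes could not be called there. Of the 9 cold-regulated genes, 2 rose in mom1 replicate 2, 1 in mom1pial2 and 2 in pial2, all of them CBF1 or CBF2, activators of cold-response genes, named here after their values were seen. These 3 tables share WT replicate 2, which was the lowest of the 8 libraries for both genes, with 0.219 FPKM of CBF1 against 1.06 to 2.13 FPKM in the other libraries and 2.02 FPKM of CBF2 against 3.38 to 11.9 FPKM. In those 3 tables COR27 and COR28 were not called. Of the CCA1 and REVEILLE family 1 gene, AT1G01520, rose in mom1 replicate 2 and none was called elsewhere. In mom1 replicate 1 the median log2 ratio of that family was 0.34 and that of the evening genes −0.41, against −0.0066 over all genes. In mom1 replicate 2 the medians over tested genes were 0.16 and −0.043, against 0.0071 over all genes. These medians were not tested. No gene of these lists was called by limma in mom1.

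Evening elements were counted over genes with a promoter and at least 1 FPKM in either WT library. Of 1284 such genes at least 2-fold lower in WT replicate 2, 11.8% held the element in the 300-base window. The share was 2.36% of 1483 genes at least 2-fold higher and 2.43% of 16555 genes less than 2-fold apart. COR28, GRP7 and GRP8 are among those that were lower and held it. G-boxes stood in 8.80% of the lower genes, 15.4% of the higher genes and 8.38% of those less than 2-fold apart. For the CCA1-binding site these shares were 9.35%, 7.75% and 8.05%. Of the 8 evening genes 5 held the evening element, namely PRR5, TOC1, LUX, BOA and FKF1.

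Marker genes of tissues were read beside the set difference. In bulk RNA, fewer cells of a type and less RNA per cell cannot be told apart. The summed FPKM of 4 photosynthetic shoot markers was 16851 to 18376 in set 2 and 22523 to 25082 in set 1. RBCS1A made up the largest part, with 9325 FPKM in WT replicate 2. The log2 difference between the WT libraries was −0.57 for RBCS1A, −0.89 for LHCB3 and −0.56 for PSBO1. LHCB2.1 went the other way, at 0.20, and its sets overlapped. The 4 root markers summed to 32.7 to 59.9 FPKM in set 2 and 32.8 to 41.5 FPKM in set 1. The 4 seed storage and oil body markers summed to 0.487 to 14.9 FPKM in set 2, highest in WT replicate 2, and to 0.540 to 0.981 FPKM in set 1. Against WT replicate 2 the authors' test called 3 of the 4 seed markers lower in mom1 replicate 2, 1 in mom1pial2 and 3 in pial2, and 2, 1 and 2 of the 4 root markers. CRU3 and SESA3, seed storage protein genes, had 3.18 and 3.57 FPKM in WT replicate 2 and were listed at 0 in WT replicate 1. The 4 flower markers were each under 1 FPKM in both WT libraries. The part of these differences in the levels of the 8 genes was not tested.

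The genes whose log2(FPKM + 1) followed each of the 8 most closely over the 8 libraries were ranked among 19787 genes by Pearson correlation, as a description. These correlations mostly restate the gap between the 2 sets, which all 8 libraries share. COR28 was most like BBX8, AT1G21610 and LUX (r = 0.998 each), and LUX encodes a MYB-like factor of the evening complex. COR27 was most like AT5G62900, RABG3B and AT1G33050 (r = 0.998, 0.997 and 0.996). LNK1 was most like AT1G05170, CYP89A2 and GATA7 (r = 0.998, 0.995 and 0.994), LNK2 like AT2G24545, UGT78D2 and AT4G36988 (0.999 each), LNK3 like AT1G74070, AT2G40020 and SIP1 (0.9995, 0.999 and 0.999), and LNK4 like AT5G39350, RSZ22a and RSZ22 (0.999 each). GRP7 was most like AT-P4H-1, AMI1 and AT3G57890 (0.998 each), and GRP8 like MPK7, PNG1 and KAB1 (0.999, 0.999 and 0.998). The closest relative ranked 25th for GRP7 (r = 0.996) and 46th for GRP8, 51st for COR27 (r = 0.989) and 191st for COR28. It ranked 1277th for LNK3 (r = 0.980), 1089th for LNK4, 507th for LNK1 (r = 0.961) and 2555th for LNK2.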

How the data were processed

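Polyadenylated RNA of 8 seedling libraries was measured. Per the submitters' processing notes, the tools were TopHat2 2.0.12 and Bowtie, Cufflinks 2.2.1 and Cuffdiff, with the build TAIR10. Read length, strand and filters are not given in the sources used here. Per the file headers, the authors' values are FPKM per gene, with 1 mutant and 1 WT library in each file. The p-value and q-value deposited beside them come from the authors' test of that pair. Between files, values of a WT library shifted by a near-constant factor of 0.995 to 1.02. Levels of WT libraries come from the mom1 tables unless stated.

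Log2 values were taken after adding 1 FPKM. An intercept-only model of both mom1 ratios was run in limma 3.58.1 (R 4.3.3, two-sided, Benjamini-Hochberg over all genes at 0.05) on genes with at least 1 FPKM in any of 4 libraries. The fit, run from Python 3.11.15, was tested on simulated data. Entries whose estimate failed in any table were left out (96 of 34133). Of 34133 entries 33389 matched TAIR10.1 by locus, and 99.997% of those overlapped the gene of that locus. The promoter of COR27 is not reported here.

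The 8 genes and the lists were chosen with earlier results of these data known. Of each pathway list the 2 highest and 2 lowest genes by the WT difference were named, all where it held 4 or fewer. Tissue markers were summed. Genes called by the authors, and others named beside the 8 genes or beside a threshold, were added after their values were seen. The alternatives were another pseudocount, centring, no filter, no replicate block, mom1 in place of WT libraries, 4-library means and stricter q-values.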

Additional observations from a re-analysis of the deposited data

Results flagged for a closer look

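LNK3 in mom1 replicate 2, at 157 FPKM, stood apart from the other 3 libraries of set 2 (133 to 136 FPKM) by most of the range of the 4. Both sets were looked at for each of the 8 genes, 16 groups in all, and chance alone marks about 1 group in 20. The 4 libraries are of different genotypes.

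LNK1 had a log2 ratio of mom1 over WT of 0.65 in the replicate 1 table and −0.051 in the replicate 2 table. COR28 had −0.76 in the replicate 1 table and 0.31 in the replicate 2 table. The 2 tables pointed opposite ways for these genes, and with 1 library a genotype in each table the difference was not tested.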

How the results depend on the processing

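Each mom1 ratio pairs libraries of the same number, so the fit carries a replicate block. Over 20488 genes, the differences between replicates 1 and 2 in WT and in mom1 correlated at 0.835, a hint from the data and not from the labels that the numbers mark a shared source. Without the replicate block limma called 0 genes, and with no filter on low values 0, against 18 as reported, 18 with centred ratios and 21 with a pseudocount of 0.1. None of the 8 genes was called under any of these alternatives. Their mean log2 ratios lay between −1.01 and −0.70 for COR27 and between 0.48 and 0.51 for LNK3, with limma adjusted p of at least 0.554 and 0.802. With each table alone, COR27 gave −1.10 to −0.29 and LNK3 0.24 to 0.72, LNK1 −0.051 to 0.65, COR28 −0.76 to 0.31, LNK4 −0.14 to 0.36, GRP7 −0.43 to 0.18 and GRP8 −0.053 to 0.19, so 5 of the 8 change sign.

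Of the 4 authors' calls 1, COR27 in mom1 replicate 1, is left at a q-value under 0.01, and 1 is left at a q-value under 0.05 with at least a 2-fold change. The set difference of the 8 genes changed sign under none of its 6 alternatives. With the mom1 libraries in place of WT it was 0.83 for LNK1, 2.04 for LNK2, 3.43 for LNK3 and 2.17 for LNK4, and −2.32 for COR27, −2.49 for COR28, −2.48 for GRP7 and −1.99 for GRP8. A pseudocount of 0.1 gave −4.25 for COR27 and −4.78 for COR28. The value with no pseudocount was chosen after seeing the data. The median of the other glycine-rich genes turned to 0.0713 with centring. The sets sit in separately normalised tables, each genotype but mom1 and WT is in 1 set, and depth in fragments is unknown, which limits COR27 and COR28 most.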
